A study of Gallus gallus with 8 samples.

Results

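The genes of oxidative phosphorylation were followed in hen follicle RNA hybridised to Affymetrix chicken arrays. They were chosen by the gene symbols of the array annotation that name nuclear-encoded subunits of the 5 complexes, and a gene with several probe sets was represented by the one with the highest mean over the 8 arrays. The symbols gave 65 genes of 13009 named on the array. Of these, 33 belonged to complex I, 2 to complex II, 8 to complex III, 8 to complex IV and 14 to complex V. Testing required 2 or more arrays with a log2 value of 4 or higher, and 58 of the 65 genes passed, among 7042 genes in all. The samples are given as F1 oocytes, the F1 follicle being the largest of the ovary and the next to ovulate, collected 24 h before ovulation from hens kept in 14 h of light and 10 h of dark. DPF+ and DPF- come from divergently selected lines of unlike fertility. HG+ and HG- hens share 1 line and also differ in fertility. Each group had 2 arrays, described as biological replicates, with nothing said about separate birds or pools, so p-values measure the spread between these samples.

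Oxidative phosphorylation takes electrons from food through complexes I to IV in the inner mitochondrial membrane, pumps protons as it does so, and lets them flow back through complex V, the ATP synthase. Complex I accepts electrons from NADH and complex II from succinate, complex III passes them from ubiquinol to cytochrome c, and complex IV hands them to oxygen. Most subunits are encoded in the nucleus and a small core of them in mitochondrial DNA. The hen oocyte stores mitochondria for the embryo, and the granulosa cells around it use theirs for steroid synthesis as well, the first step of which takes place inside the mitochondrion.

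The labelled tissue was checked against marker genes. Of 18 oocyte markers 14 were named on the array and 8 passed the filter, with DAZL and ZP2 among them. GDF9, BMP15, ZP1, ZP4 and DDX4 stayed under it, with highest values on any array of 2.53 to 2.99. KPNA7 did not pass either, with a highest value of 4.06. All 17 granulosa markers were named on the array and 16 passed, with the luteinizing hormone receptor LHCGR at a mean of 11.50 and the steroid enzyme CYP11A1 at 11.01. The RNA is therefore one in which granulosa markers are abundant. In such bulk samples fewer cells of a type and less RNA per cell cannot be told apart. The difference between 3′ and 5′ probe sets of 3 control transcripts, a measure of RNA degradation and of amplification length, averaged 1.82, 1.86, 1.54 and 1.33 (log2) on the arrays DPF+ replicate 1, DPF+ replicate 2, DPF- replicate 1 and DPF- replicate 2, and 1.15, 1.17, 1.10 and 1.04 on the HG arrays in the same order (HG+ replicates 1 and 2, then HG- replicates 1 and 2). On each array, 11433 to 12093 probe sets were at 4 or above (log2).

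Most subunit genes gave strong signals. The gene with the highest mean over the 8 arrays was NDUFA4 (11.26) among those named as complex I, UQCR10 (10.80) in complex III, COX6A1 (11.15) in complex IV and ATP5G3 (11.13) in complex V. NDUFA4 carries a complex I name, and was counted there throughout, but is now known as a subunit of complex IV. UQCR10 and COX6A1 are small accessory subunits, and ATP5G3 encodes the c subunit that forms the rotor ring of the ATP synthase. Complex II was represented by SDHD, one of its membrane anchors, at 9.31, and by SDHA, which carries the flavin and binds succinate, at 9.22. The lowest means among the tested genes were 5.35 for NDUFS4, 4.42 for UQCRB, 4.54 for COX5A and 6.21 for ATP5S, which encodes factor B, a protein coupled to the ATP synthase. Probe sets differ in how well they bind their transcript, so these means do not order the genes by transcript number.

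The 7 genes that did not pass the filter were NDUFS3 and NDUFS5 of complex I, COX7B of complex IV, and ATP5J, ATP5J2, ATP5E and ATP5G2 of complex V. Their means were 3.20, 3.05, 2.48, 3.13, 3.05, 2.90 and 2.79 in that order. NDUFS3, a core subunit of the arm that takes electrons from NADH, stood at 4.43 on DPF- replicate 1 and between 2.94 and 3.27 on the other arrays. Every other value of these 7 genes lay under 4 as well. None of the mitochondrially encoded subunits was found by name in the annotation used here, so they were not analysed here.

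The subunit genes were steady across arrays. Over the 8 arrays the median SD of the 58 genes was 0.211 (log2), against 0.300 for all 7042 tested genes and 0.276 for the 4345 of them with a mean of at least 6. NDUFC2, an accessory subunit of the membrane arm of complex I, had the smallest SD of the 58, at 0.0629. Its values were 10.01 and 10.06 in DPF+, 9.96 and 10.03 in DPF-, 10.02 and 9.99 in HG+, and 10.11 and 10.15 in HG-. NDUFA12, an accessory subunit of complex I, had the largest SD, at 0.369. Its values were 10.11 and 10.84 in DPF+, 11.03 and 10.66 in DPF-, 11.00 and 11.18 in HG+, and 11.22 and 11.15 in HG-, so that 1 DPF+ array stood below the other 7.

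**Figure D1:**
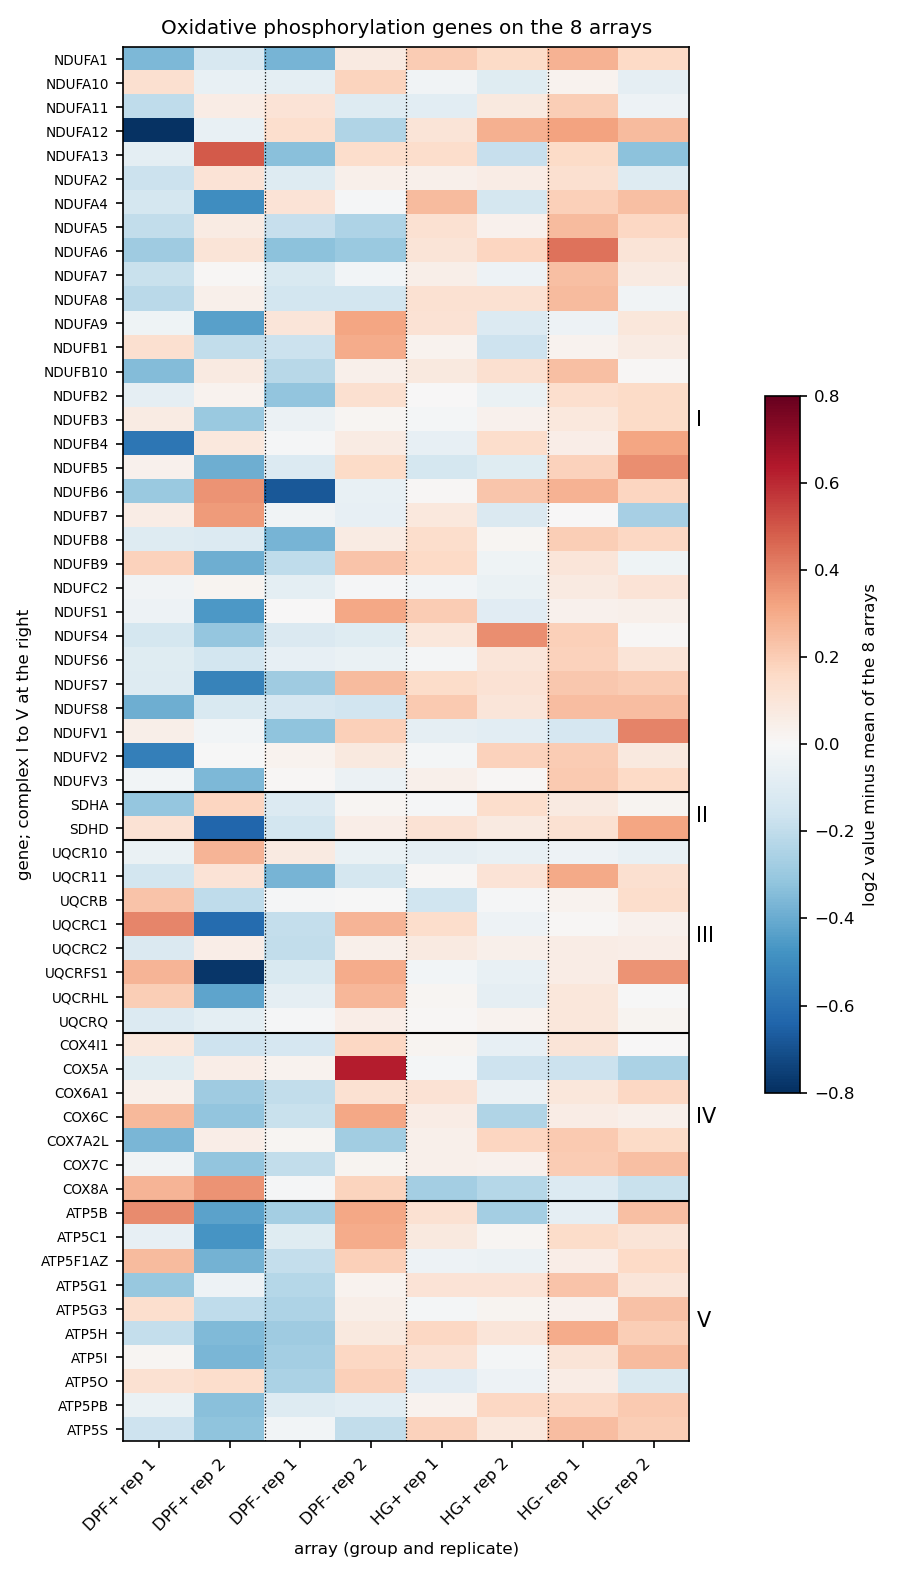
Each row is 1 of the 58 tested genes, ordered by complex, and each column is 1 array. The colour is the log2 value minus the gene's mean over the 8 arrays, red above and blue below. The DPF columns hold most of the blue cells, DPF+ replicate 2 being the lowest array for 27 genes, and COX8A is higher in DPF than in HG.

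Measured from each gene's mean over the 8 arrays, the median of the 58 genes was -0.07 and -0.13 on the DPF+ arrays, -0.13 and 0.05 in DPF-, 0.04 and 0.02 in HG+, and 0.13 and 0.11 in HG-. Both HG- arrays thus stood above the other 6. The same median over all tested genes was -0.10, 0.07, -0.01, -0.11, 0.01, 0.03, 0.04 and 0.01 on the arrays in this order. DPF+ replicate 2 was the lowest of the 8 arrays for 27 of the 58 genes, although for 19.4% of all tested genes. HG- replicate 1 was the highest for 19 of the 58 and for 7.20% of all tested genes. DPF- replicate 1 was the highest for 0 of the 58.

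By the range of its array medians, complex V varied most. Its 10 tested genes had medians of -0.02 and -0.34 on the DPF+ arrays, -0.24 and 0.12 in DPF-, 0.09 and 0.02 in HG+, and 0.13 and 0.20 in HG-. The 31 genes of complex I had -0.11 and -0.06, then -0.12 and 0.04, then 0.08 and 0.03, then 0.19 and 0.10. Complex III, with 8 genes, stood at 0.07 and -0.14 in DPF+, -0.10 and 0.05 in DPF-, 0.01 and -0.03 in HG+, and 0.06 and 0.04 in HG-. Complex IV, with 7 genes, stood at 0.04 and -0.17 in DPF+, -0.14 and 0.16 in DPF-, 0.04 and -0.07 in HG+, and 0.09 and 0.04 in HG-. In complexes III, IV and V the replicates of each DPF group were farther apart than those of each HG group. The 2 genes of complex II did not move together in DPF+, where SDHD was at 9.42 and 8.67 and SDHA at 8.91 and 9.39.

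**Figure D2:**
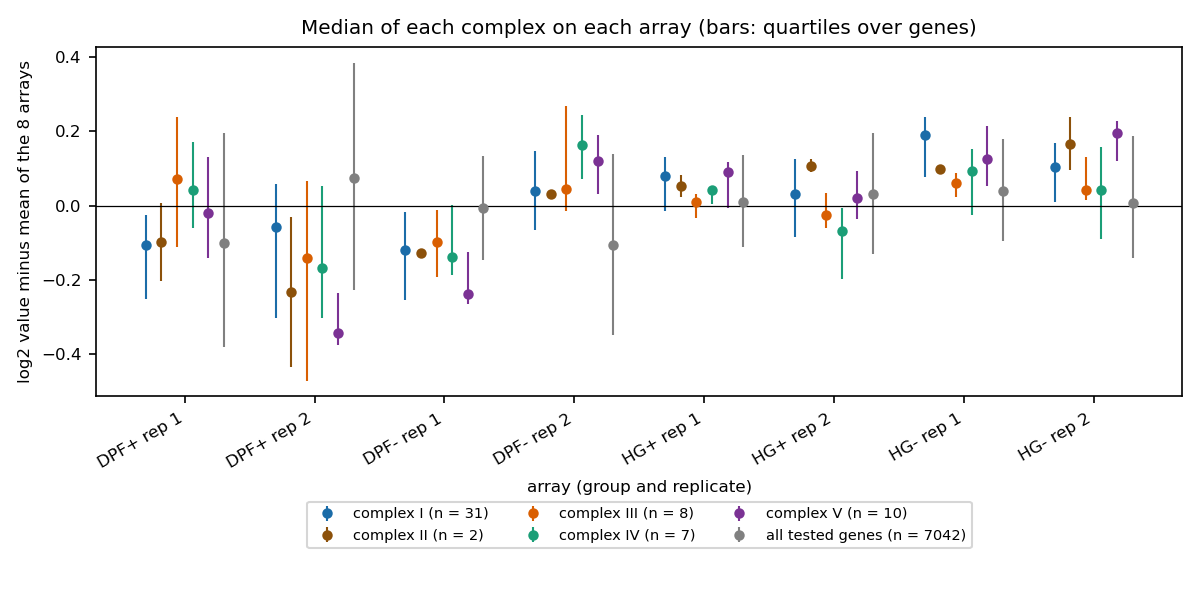
Points are the median over the tested genes of each complex of the log2 value minus the gene's mean over the 8 arrays, and bars span the quartiles over genes. Grey points are all 7042 tested genes. Complex V ranges from -0.34 on DPF+ replicate 2 to 0.20 on HG- replicate 2, while the grey points stay between -0.11 and 0.07.

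Between the DPF+ replicates the median difference had opposite signs in complexes I and V, with complex I close to all tested genes. This description rests on 1 pair of arrays. DPF+ replicate 1 exceeded DPF+ replicate 2 for 8 of 10 complex V genes (median difference 0.31) and for 14 of 31 complex I genes (median -0.10), and for 41.2% of all tested genes (median -0.17). The members of the catalytic head of the ATP synthase lay 0.41 to 0.81 higher on replicate 1. ATP5B, the catalytic beta subunit, was at 10.09 and 9.28, ATP5F1AZ, the alpha subunit, at 9.81 and 9.18, and ATP5C1, the gamma subunit that turns inside the head, at 9.97 and 9.56. The widest gap was that of UQCRFS1, the Rieske iron-sulfur protein of complex III, at 8.70 and 7.65, next to UQCRC1, a core protein of the same complex, at 9.37 and 8.36. Complex I was divided, with 14 genes higher on replicate 1, by up to 0.58, and 17 lower. NDUFA12 was 0.73 lower on replicate 1. NDUFB4, an accessory subunit, was at 7.82 and 8.48, but its other tested probe set lay the other way, at 6.05 and 5.27.

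In DPF-, replicate 2 exceeded replicate 1 for 47 of the 58 genes (median difference 0.24), although for 39.4% of all tested genes (median -0.09). Complex V had 9 of 10 genes higher on replicate 2 with a median of 0.37, and complex I 23 of 31 with a median of 0.10. The replicate differences of the 58 genes had an SD of 0.425 in DPF+ and 0.237 in DPF-, but 0.149 in HG+ and 0.169 in HG-. For all tested genes these SDs were 0.739, 0.441, 0.257 and 0.266. Across the 58 genes, DPF+ replicate 1 minus replicate 2 and DPF- replicate 2 minus replicate 1 had a Pearson r of 0.38, and across the 7042 tested genes 0.55. These are descriptions, since all genes of an array share its RNA and its scaling. In 28 of the 58 genes both differences were above 0, and in 7 both were below it. Of the 7042 tested genes, 1869 had both above 0 and 3169 both below it. The sign of r follows the order of subtraction, which was reversed in DPF-.

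Markers of other cell types differed between the same arrays. The 16 granulosa markers had medians of 0.00 and -0.41 on the DPF+ arrays, -0.10 and 0.15 in DPF-, 0.13 and -0.03 in HG+, and 0.01 and 0.18 in HG-, measured as for the subunit genes. Their summed level (log2) was 14.61 to 15.08 in DPF+, 14.91 to 15.12 in DPF-, 14.94 to 15.12 in HG+ and 14.98 to 15.14 in HG-. The 8 oocyte markers had medians of -0.34 and 0.23 in DPF+, 0.09 and -0.55 in DPF-, -0.01 and 0.26 in HG+, and 0.19 and -0.02 in HG-. For the summed level of these markers the DPF+ range was 8.44 to 9.27, the DPF- range 8.29 to 9.09, the HG+ range 8.84 to 9.07 and the HG- range 8.87 to 8.97. The array with the lowest complex V median, DPF+ replicate 2, was thus also the lowest for the granulosa markers, and the part of these markers in the differences between replicates was not tested. RNA amounts in the labels were 10.5 and 9.1 µg for DPF+, 10.0 and 13.3 for DPF-, 12.4 and 10.2 for HG+, and 9.9 and 8.8 for HG-.

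**Figure D3:**
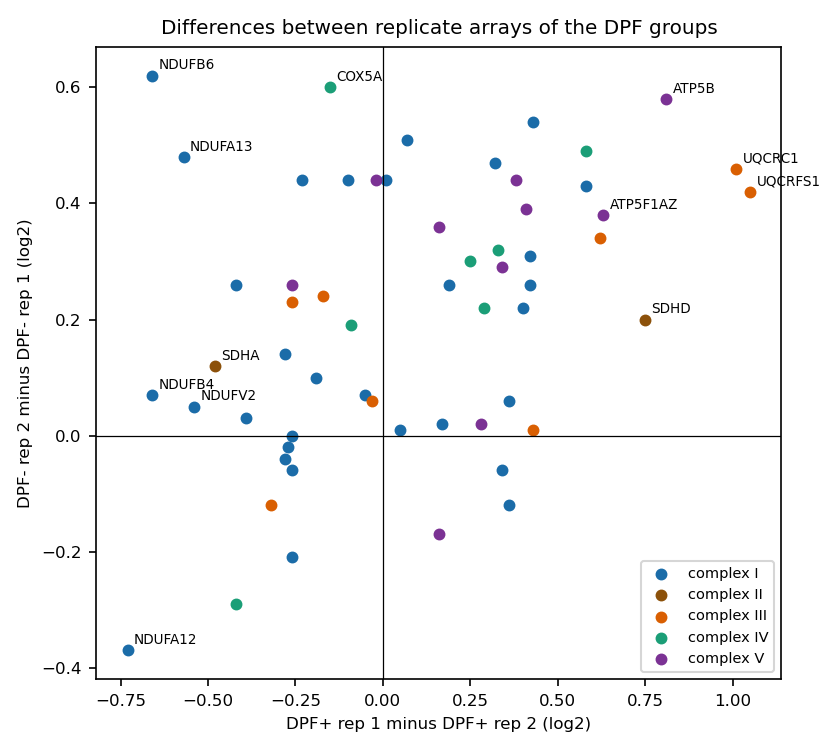
Each point is 1 of the 58 tested genes, coloured by complex, with the log2 difference between the DPF+ replicates on the x axis and between the DPF- replicates on the y axis. UQCRFS1, UQCRC1 and ATP5B lie at the upper right, and 47 points lie above 0 on the y axis.

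The comparison of DPF+ with DPF- sets the divergent lines of unlike fertility against each other. Fertility and any other difference between these lines cannot be told apart in it. None of the 58 genes was called at an adjusted p under 5% (limma with Benjamini-Hochberg adjustment over 12725 probe sets), in a comparison that called 0 of all tested probe sets (0%) while 781 had an unadjusted p under 0.05. No subunit gene had an unadjusted p under 0.05. The difference DPF+ minus DPF- was negative for 40 of the 58 genes and had a median of -0.08, against 42.9% negative and a median of 0.04 over all tested genes. The median was -0.07 in complex I, -0.12 in complex II, -0.05 in complex III, -0.08 in complex IV and -0.08 in complex V. The standard error of a single gene was larger than these medians, at a median of 0.20 over the 58 genes. The median of the 58 became 0.02 without DPF+ replicate 2, 0.05 without DPF- replicate 2, 0.03 with the RNA amount as a covariate and -0.16 without DPF- replicate 1, so its direction rested on single arrays. Leaving out 1 array at a time, the median ran from -0.14 to 0.06 in complex I, from -0.15 to 0.10 in complex III, from -0.23 to 0.07 in complex IV and from -0.24 to 0.08 in complex V, while complex II stayed below 0. It was above 0 without DPF- replicate 2 in complexes I, III, IV and V, without DPF+ replicate 2 in complexes III, IV and V, and without DPF+ replicate 1 in complex I. The 3′ to 5′ difference, at 1.82 and 1.86 in DPF+ and 1.54 and 1.33 in DPF-, separated the groups, and its part in the result was not tested.

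Both DPF+ arrays lay below both DPF- arrays for 7 of the 58 genes (12.1%), against 12.1% of all tested probe sets and 9.19% of all tested genes. They lay above for 3 genes (5.17%), against 11.2% of all tested probe sets and 11.3% of all tested genes. Of the 10 genes, 8 carried complex I names, NDUFA4 among them. NDUFA9, an accessory subunit near the junction of the arms of complex I, had the largest difference of the 7. Its values were 7.98 and 7.58 in DPF+ and 8.11 and 8.33 in DPF-, a difference of -0.44 (SE 0.217, limma adjusted p = 0.861). In HG it was at 8.13 and 7.90 against 7.97 and 8.10, where the groups overlapped.

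Of the 5 tested core subunits of complex I, which carry the flavin and the iron-sulfur clusters, 4 were lower in DPF+, with a median of -0.31 over the 5 and -0.05 over the 26 accessory subunits. This split was not part of the plan, which grouped the genes by complex. In HG+ against HG- the medians were -0.08 over the core and -0.105 over the accessory subunits. NDUFS8, 1 of the 4, was lower through DPF+ replicate 1 alone, at 8.36 and 8.63 in DPF+ and at 8.62 and 8.60 in DPF-. NDUFS1, the largest of the core subunits, was at 8.61 and 8.19 in DPF+ and at 8.65 and 8.96 in DPF-. NDUFV2, an iron-sulfur subunit of the NADH-binding module, was at 8.00 and 8.54 in DPF+ and at 8.57 and 8.62 in DPF-. On these probe sets of NDUFS1 and NDUFV2 the groups did not overlap, and the adjusted p was 0.882 and 0.906 (limma). The other tested probe set of NDUFS1 was at 8.22 and 9.01 in DPF+ and at 8.84 and 9.66 in DPF-. Its difference was also negative, at -0.635, but there the groups overlapped. NDUFB7, an accessory subunit of the membrane arm, lay the other way with 7.17 and 7.45 in DPF+ and 7.08 and 7.04 in DPF-, a difference of 0.25 (SE 0.209, limma adjusted p = 0.929).

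Among the tested genes of complex III only UQCRQ, a small subunit, had DPF arrays without overlap. It was at 8.56 and 8.59 in DPF+ and at 8.66 and 8.72 in DPF-, a difference of -0.12 (SE 0.167, limma adjusted p = 0.945). Among those named as complex IV only COX8A, a small subunit that spans the membrane, had none. It was at 8.24 and 8.33 in DPF+ and at 7.96 and 8.15 in DPF- (difference 0.23, SE 0.180, limma adjusted p = 0.921). NDUFA4, counted with complex I by its name, had none either, at 11.12 and 10.76 in DPF+ and at 11.37 and 11.25 in DPF-. COX5A, a subunit on the matrix side, had its highest value of the 8 arrays on DPF- replicate 2 (5.16), with 4.56 on DPF- replicate 1 and 4.44 and 4.59 in DPF+. No tested gene of complexes II and V separated the DPF groups.

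The comparison of HG+ with HG- addresses fertility inside 1 line. No subunit gene was called, as was none of the 12725 probe sets (0%), of which 45 had an unadjusted p under 0.05 in limma, none of them a subunit gene. That fit shared its estimate of the spread among the 4 groups, and the DPF replicates differed more than the HG replicates. With the 4 HG arrays fitted alone, 298 probe sets had an unadjusted limma p under 0.05, 1 of them for a subunit gene, and none was called. With the 4 DPF arrays alone these numbers were 297 and 0, and none was called. The difference HG+ minus HG- was negative for 47 of the 58 genes, with a median of -0.09, against 52.0% negative and a median of -0.01 over all tested genes. The medians of the complexes were alike, at -0.09 in complex I, -0.05 in complexes II and III, -0.09 in complex IV and -0.10 in complex V. All 10 tested genes of complex V were lower in HG+, by 0.04 to 0.16. The median standard error of a single gene was 0.20. The median of the 58 was -0.06 without HG+ replicate 2, -0.07 without HG- replicate 1 and -0.19 once the RNA amount entered as a covariate.

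Both HG+ arrays lay below both HG- arrays for 22 of the 58 genes (37.9%), against 14.4% of all tested probe sets and 13.7% of all tested genes. They lay above for 1 gene, COX5A, against 10.7% of all tested probe sets and 10.8% of all tested genes. The COX5A probe set lay close to the filter value of 4. The gene's other probe set, under the filter, lay the other way (3.28 and 3.26 in HG+, 3.49 and 3.59 in HG-). The 22 genes held 11 of complex I, 1 of complex II, 3 of complex III, 2 of complex IV and 5 of complex V. The mean difference between 3′ and 5′ probe sets, at 1.15 and 1.17 in HG+ and 1.10 and 1.04 in HG-, separated the same groups. Of its control transcripts only ef1a did so by itself (0.77 and 0.83 against 0.74 and 0.75), while actin and gapdh overlapped. The part of the 3′ to 5′ difference in the result was not tested. The RNA amounts given above separated HG+ from HG- too, and their part cannot be told apart from that of the group. The fit with the RNA amount takes its slope from replicates within groups, so it cannot decide this. The granulosa and oocyte medians given above overlapped between HG+ and HG-. By summed level (log2), markers of theca and stroma (2 of 10 above the filter) did not overlap, at 8.99 to 9.04 in HG+ and 8.25 to 8.71 in HG-. Nor did those of endothelium (2 of 8), at 5.52 to 6.09 and 6.20 to 6.36, although by medians both lists overlapped. In the first list COL1A2 lay higher in HG+ (8.93 and 8.87 against 8.01 and 8.51), but MYLK lay lower (5.22 and 5.36 against 5.57 and 5.76). In the second CLDN5 lay lower in HG+ (5.54 and 5.11 against 5.87 and 5.97), while CDH5 overlapped (4.42 and 3.49 against 3.92 and 4.29). The part of these markers in the result was not tested.

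NDUFB5, an accessory subunit of the membrane arm of complex I, had the largest difference. It was at 9.29 and 9.33 in HG+ and at 9.61 and 9.80 in HG-, a difference of -0.40 (SE 0.208, limma unadjusted p = 0.0958, adjusted p = 1). In the DPF groups it was at 9.46 and 9.04 against 9.32 and 9.58, where the groups overlapped. SDHD of complex II was at 9.42 and 9.38 in HG+ and at 9.43 and 9.62 in HG- (difference -0.12, SE 0.259, limma adjusted p = 1), a gap of 0.01 between the nearest arrays. UQCRFS1 of complex III was at 8.41 and 8.37 in HG+ and at 8.49 and 8.79 in HG- (difference -0.25, SE 0.342, limma adjusted p = 1).

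COX7C, a small membrane subunit of complex IV, was at 9.75 and 9.74 in HG+ and at 9.91 and 9.95 in HG-. Its difference was -0.19 (SE 0.181, limma adjusted p = 1), and its replicates were within 0.04 of each other. COX5A was at 4.52 and 4.37 in HG+ and at 4.36 and 4.28 in HG-, a difference of 0.12 (SE 0.244, limma adjusted p = 1) that became -0.10 with the RNA amount as a covariate. ATP5F1AZ, the alpha subunit of the ATP synthase head, was at 9.52 and 9.51 in HG+ and at 9.61 and 9.72 in HG- (difference -0.15, SE 0.246, limma adjusted p = 1). Its symbol names the copy on the Z chromosome, and birds also carry a copy on W, so the signal may hold both. The other 4 genes of complex V without overlap were ATP5C1, ATP5G3, ATP5H, a subunit of the peripheral stalk, and ATP5S.

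**Figure D4:**
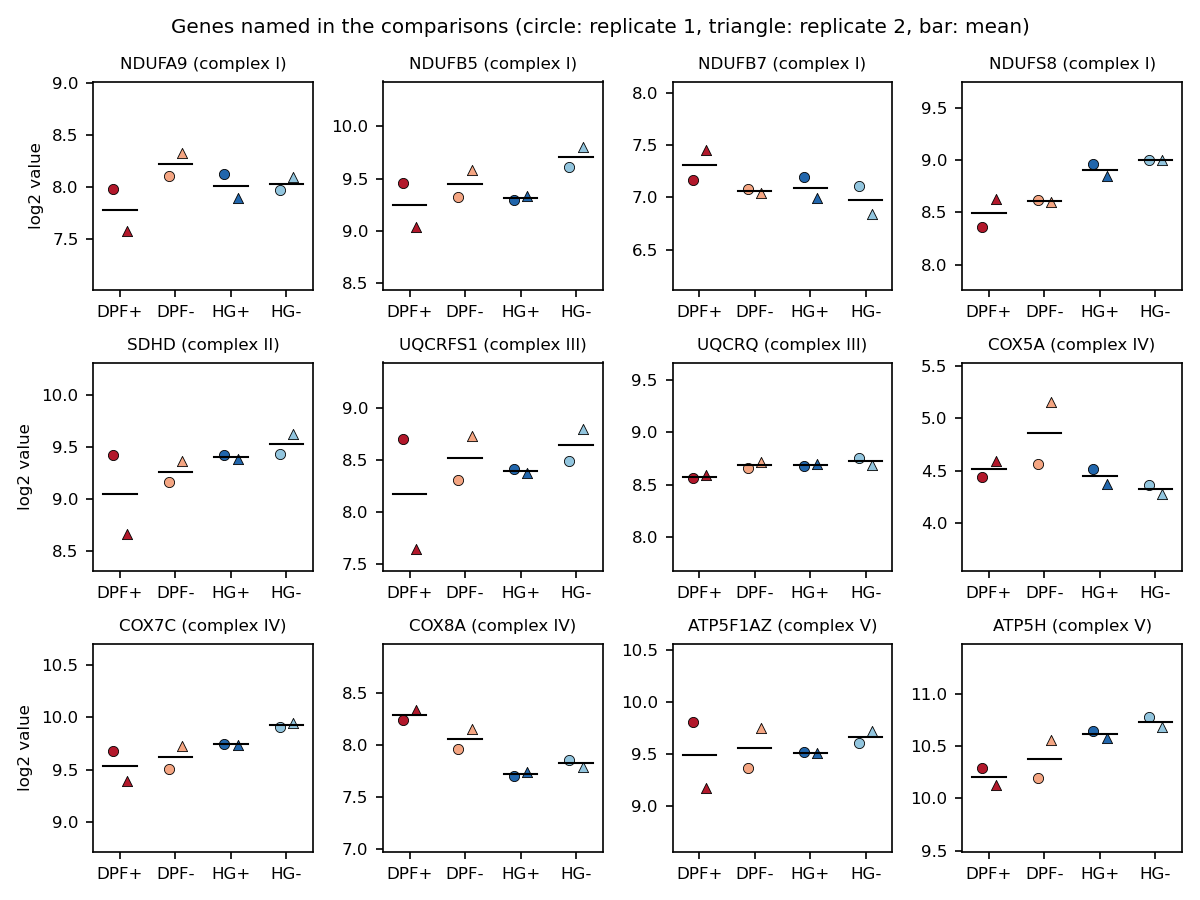
Log2 values of the 12 genes named in the comparisons, 1 panel each, with circles for replicate 1, triangles for replicate 2 and bars for the mean of each group. Every panel spans the same range of 2 log2 units around the gene's mean. The DPF+ replicates of UQCRFS1 and SDHD are far apart, and the COX8A arrays of DPF lie above those of HG.

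The difference between the fertility contrasts, DPF+ minus DPF- less HG+ minus HG-, was tested as well. None of the 58 genes and none of the 12725 probe sets was called (0%), with 364 probe sets at an unadjusted p under 0.05. Over the 58 genes the median of this difference was 0.01, and 26 were negative. UQCR11, a small subunit of complex III, had the smallest p, with a DPF difference of 0.23, an HG difference of -0.15 and a difference between them of 0.39 (limma unadjusted p = 0.177, adjusted p = 0.999). The median was 0.13 without DPF+ replicate 2, -0.10 without DPF- replicate 1 and, adjusted for RNA amount, 0.23.

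All 4 DPF arrays were also compared with all 4 HG arrays. Hen source, and any handling or array run that went with it, cannot be told apart in this comparison. Limma called 1588 of 12725 probe sets (12.5%), 443 higher and 1145 lower in DPF, a split of 72.1% lower that became 56.2% with quantile normalization. No subunit gene was called, while 587 of the 7042 tested genes were. An unadjusted limma p under 0.05 was reached by 7 of the 58 genes (12.1%), against 29.7% of all tested probe sets and 24.2% of all tested genes.

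The difference DPF minus HG was negative for 48 of the 58 genes with a median of -0.16, against 56.0% negative and a median of -0.055 over all tested genes. It was -0.18 in complex I, -0.21 in complex II, -0.07 in complex III, -0.03 in complex IV and -0.20 in complex V. With each array centred on its median the values were -0.12, -0.15, -0.01, 0.03 and -0.14, so the direction in complex IV flipped, as it did with quantile normalization (0.01). Without DPF+ replicate 2 the median was 0.07 in complex III, 0.03 in complex IV and -0.10 in complex V, and without DPF- replicate 1 it was -0.02, 0.045 and -0.10. In complexes I, II and V it stayed below 0 whichever array was left out. The median of the 58 genes was -0.09 with median centring and -0.09 without DPF- replicate 1. The 3′ to 5′ difference was larger on all 4 DPF arrays than on the HG arrays, and its part in the result was not tested. Of 10 markers of theca and stroma, the 2 above the filter, COL1A2 and MYLK, separated the sources too. Their summed level (log2) was 5.28 to 6.53 in DPF+, 5.23 to 5.31 in DPF-, 8.99 to 9.04 in HG+ and 8.25 to 8.71 in HG-. COL1A2 ran from 4.08 to 5.97 in DPF and from 8.01 to 8.93 in HG. The other listed markers stayed under the filter value on every array. Among them, the collagen genes COL1A1 and COL3A1 had highest values of 2.49 and 3.74, and CYP17A1, which defines theca cells, had 2.49.

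All DPF arrays lay below all HG arrays for 9 of the 58 genes (15.5%), against 16.5% of all tested probe sets and 12.2% of all tested genes. They lay above for 1 gene (1.72%), against 8.3% of all tested probe sets and 8.51% of all tested genes. The 9 were NDUFA1, NDUFS4, NDUFS6 and NDUFS8 of complex I, COX7C of complex IV, and ATP5G1, ATP5H, ATP5PB and ATP5S of complex V. NDUFS8, a core subunit that holds iron-sulfur clusters, was at 8.36 and 8.63 in DPF+, 8.62 and 8.60 in DPF-, 8.96 and 8.85 in HG+, and 9.0 on both HG- arrays. Its difference was -0.40 (SE 0.128, limma unadjusted p = 0.0147, adjusted p = 0.0804), the smallest p among the 58 genes.

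ATP5H was at 10.29 and 10.13 in DPF+, 10.20 and 10.56 in DPF-, 10.65 and 10.58 in HG+, and 10.78 and 10.68 in HG-, a difference of -0.38 (SE 0.128, limma adjusted p = 0.0940). COX7C was at 9.68 and 9.39 in DPF+ and 9.51 and 9.73 in DPF-, below the HG values given above by 0.26 (SE 0.128, limma adjusted p = 0.221). COX8A was the 1 gene higher in DPF. Against the DPF values given above it was at 7.70 and 7.74 in HG+ and 7.86 and 7.79 in HG-, a difference of 0.40 (SE 0.127, limma adjusted p = 0.0812).

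The other 4 of the 7 genes with an unadjusted p under 0.05 were NDUFA6, NDUFA1, NDUFA12 and ATP5S, all lower in DPF. NDUFA6, an accessory subunit of complex I that binds the acyl carrier protein, was at 9.43 and 9.82 in DPF+, 9.39 and 9.42 in DPF-, 9.82 and 9.89 in HG+, and 10.15 and 9.82 in HG-. Its DPF+ replicate 2 reached the lowest HG values, and the difference was -0.41 (SE 0.144, limma adjusted p = 0.106). NDUFA1, a small membrane subunit of complex I, was at 9.15 and 9.38 in DPF+, 9.14 and 9.58 in DPF-, 9.71 and 9.66 in HG+, and 9.79 and 9.67 in HG- (limma adjusted p = 0.114). ATP5S, the least intense of the tested complex V probe sets, was at 6.05 and 5.89 in DPF+, 6.19 and 6.02 in DPF-, 6.40 and 6.30 in HG+, and 6.46 and 6.41 in HG- (limma adjusted p = 0.126).

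Subunits of the same part of a complex did not always vary alike. The c subunit of the rotor ring is the product of several genes, of which ATP5G1 and ATP5G3 passed the filter. ATP5G1 was at 8.89 and 9.15 in DPF+, 8.96 and 9.22 in DPF-, 9.30 on both HG+ arrays, and 9.42 and 9.29 in HG-, so that all DPF values lay below 9.29. ATP5G3 was at 11.26 and 10.92 in DPF+, 10.88 and 11.17 in DPF-, 11.11 and 11.15 in HG+, and 11.16 and 11.36 in HG-, where the sources overlapped. Among the core proteins of complex III, UQCRC1 spanned 8.36 to 9.37 over the 8 arrays, both ends on DPF+ arrays. UQCRC2 was at 8.56 and 8.73 in DPF+, 8.48 and 8.72 in DPF-, and between 8.72 and 8.75 on the HG arrays. Its other tested probe set was at 5.61 and 5.59 in DPF+ and at 5.62 and 6.10 in DPF-. On the HG arrays that probe set lay between 6.56 and 6.61, above all DPF values.

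Within complex IV, COX6C, a small membrane subunit, was at 11.33 and 10.75 in DPF+, 10.89 and 11.38 in DPF-, 11.13 and 10.83 in HG+, and 11.13 and 11.11 in HG-. COX4I1, the largest nuclear-encoded subunit, followed the same order within DPF, at 10.91 and 10.66 in DPF+ and 10.69 and 10.99 in DPF-. COX7A2L, which takes part in joining complexes into supercomplexes, ran the other way within DPF, at 9.33 and 9.75 in DPF+ and 9.71 and 9.42 in DPF-. Its HG values, 9.74 and 9.87 in HG+ and 9.91 and 9.85 in HG-, overlapped those of DPF.

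Calls in the comparison of the sources turned on the DPF+ arrays. Without DPF+ replicate 1, 4 subunit genes were called (ATP5H, ATP5PB, COX8A and SDHD), and without DPF+ replicate 2, 10 were called (COX7A2L, COX8A, NDUFA1, NDUFA12, NDUFA5, NDUFA6, NDUFB4, NDUFS8, NDUFV2 and UQCR11). COX8A was the only gene called in both fits. The calls were out of 58 tested subunit genes and 12725 tested probe sets. In both fits the share called was lower among the subunit genes than among all tested probe sets. In the same fits the probe sets called numbered 2624 and 4846.

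**Figure D5:**
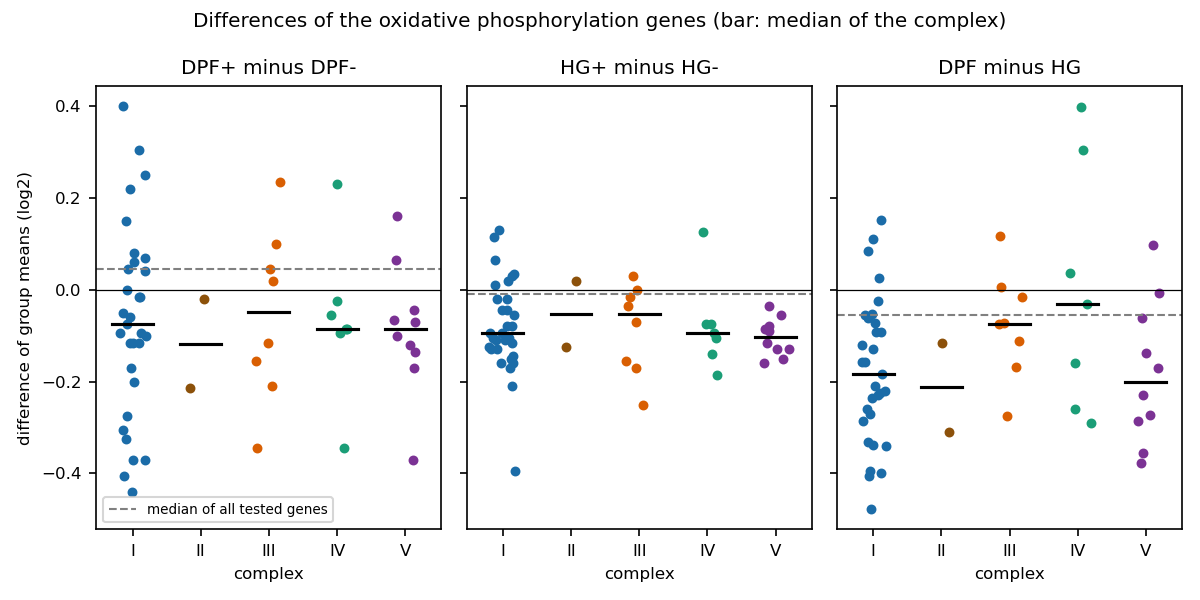
Each point is the log2 difference of group means of 1 tested gene, by complex, for DPF+ minus DPF-, HG+ minus HG- and DPF minus HG. Black bars are the medians of the complexes and the dashed line is the median of all 7042 tested genes. The HG points are the most tightly grouped, with all 10 complex V genes below 0, and none of the points passed the test.

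Other genes of the pathway were taken from lists. Of 53 assembly factors, which build the complexes, 43 were named on the array and 40 passed the filter. In DPF against HG 1 was called (2.5%), against 12.5% of all tested probe sets and 587 of the 7042 tested genes. It was LRPPRC, a protein that stabilises mitochondrial messenger RNA and is needed for complex IV, at 3.23 and 2.82 in DPF+, 3.69 and 3.93 in DPF-, 4.87 and 4.71 in HG+, and 4.91 and 4.57 in HG-. Its difference was -1.35 (SE 0.168, limma adjusted p = 0.00587), with all 4 DPF values under 4, so that it passed the filter through the HG arrays. In DPF+ against DPF- it had the smallest p of the list (difference -0.785, limma adjusted p = 0.567), and no list gene was called in any of the fertility comparisons.

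Of 18 other subunits and electron carriers 16 were named on the array and 14 passed. These numbers were 12 and 8 for 17 regulators and mitochondrial DNA factors, and 15 and 13 for 19 genes of the citric acid cycle. For 8 nucleotide carriers and porins they were 8 and 7. None of them was called in DPF against HG either, and the median differences there were 0.01, -0.01, -0.21 and -0.27 in this order. The carriers and porins, which move ATP, ADP and phosphate across the mitochondrial membranes, had medians of -0.07 and -0.51 on the DPF+ arrays and -0.30 and -0.02 on the DPF- arrays, lowest on DPF+ replicate 2 as in complex V. VDAC2, a porin of the outer membrane, was at 9.60 and 9.11 in DPF+, 9.40 and 9.66 in DPF-, 9.92 and 9.88 in HG+, and 10.01 and 10.07 in HG-. Its difference between the sources was -0.53 (SE 0.149, limma adjusted p = 0.0588).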

How the data were processed

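Total RNA was amplified, labelled with biotin and hybridised to 8 arrays, 2 in each of 4 groups. The deposited log2 values per probe set were made by the authors with GCRMA, which corrects background, normalizes arrays and summarises probes. The method is named, without a version, per the submitters' processing notes. The sources used here do not say whether all arrays were normalized together. Of 38535 probe sets, 96 controls and 8 with a blank value (6 blank on DPF arrays only, 2 on HG arrays only) were left out, and 12725 had a log2 value of at least 4 on at least 2 arrays. Gene names came from the platform annotation. Of the 65 genes, 30 had several of the 117 probe sets, 1 further probe set with several names was left out, and 64 matched the chicken reference gene table by identifier.

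The 4 group means were fitted with limma 3.58.1 in R 4.3.3 (lmFit, eBayes with an intensity trend, two-sided), with Benjamini-Hochberg adjustment over 12725 probe sets and a threshold of 5%. The code was run on simulated arrays to check that it recovers the size of known changes. Those arrays had the same spread in every group, unlike the real ones, so that run cannot show whether the p-values hold here. Changes are log2 differences of group means, SDs are between arrays, and the number of arrays limits the precision. Genes were named where they had the largest difference without overlap of arrays, or the highest or lowest mean, in a complex, where they missed the filter, or, in the other lists, where they were called or had the smallest p; of the last, some are left out. NDUFC2, NDUFA1, NDUFA6, NDUFA12, NDUFS1, NDUFV2, NDUFB4, UQCRC1, UQCRC2, UQCR11, COX4I1, COX6C, COX7A2L, ATP5B, ATP5C1, ATP5G1 and the members of counts were named after their values were seen. The genes and lists were chosen with earlier results of these data known. Alternatives were other filters, scalings and variance models, the arrays of 1 contrast alone, a replicate block, the RNA amount, all probe sets of a gene, and each array left out. Replicate numbers were not used to pair the arrays in the main fit.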

Additional observations from a re-analysis of the deposited data

Results flagged for a closer look

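In the 130 sets of 4 DPF or 4 HG arrays, 1 for each gene and source, 15 held an array far from the other 3 by Dixon's test. By chance that test marks about 1 of 20 sets of independent values from a single normal distribution. Here each set joins + and - arrays and all genes share the arrays, so the count of 15 cannot be judged against that rate. Among the tested genes on the DPF arrays, DPF+ replicate 1 was low for NDUFS8 (8.36, others 8.60 to 8.63), NDUFV2 (8.00, others 8.54 to 8.62) and NDUFB4 (7.82, others 8.39 to 8.48), all of complex I. The other tested probe set of NDUFB4 was at 6.05 on DPF+ replicate 1 (others 5.27 to 6.13). DPF+ replicate 2 was high for NDUFA6 (9.82, others 9.39 to 9.43) and low for NDUFV3 (8.56, others 8.87 to 8.93). DPF- replicate 1 was low for ATP5O, a stalk subunit of the ATP synthase (9.45, others 9.82 to 9.89). On the other tested probe sets of ATP5O this array was at 9.20 (others 9.56 to 9.92) and at 8.58 (others 8.52 to 9.30).

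On the HG arrays, HG+ replicate 2 was low for NDUFA4 (11.12, others 11.45 to 11.51) and COX6C (10.83, others 11.11 to 11.13). HG- replicate 1 was high for ATP5G1 (9.42, others 9.29 to 9.30) and HG- replicate 2 for NDUFV1, the NADH-binding subunit (8.03, others 7.50 to 7.56). The remaining 5 belonged to genes under the filter: NDUFS3 at 4.43 and ATP5J2 at 2.79 on DPF- replicate 1, ATP5G2 at 3.08 on DPF+ replicate 2, ATP5J2 at 3.36 on HG- replicate 1 and ATP5E at 3.05 on HG- replicate 2.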

How the results depend on the processing

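No subunit gene was called in DPF+ against DPF-, in HG+ against HG- or in their difference under any alternative run, leave-one-out fits included. Without a filter, 10, 1 and 1 probe sets were called in these comparisons and 1045 in DPF against HG, where a filter at 6 gave 549. With the replicate block 0, 0, 0 and 870 were called (592, 43, 283 and 3373 at an unadjusted p under 0.05). Same-numbered arrays deviated with correlations of -0.52 (DPF) and -0.19 (HG), and the labels do not say whether the numbers mark a shared run. With numbers crossed, an alternative chosen after seeing the data, DPF against HG gave 2189 (DPF crossed) and 1097 (HG crossed) and the fertility comparisons 0. Leaving out each array in turn gave 0 to 1070 probe sets in DPF+ against DPF- (1070 without DPF+ replicate 1, 2 without DPF+ replicate 2), and in DPF against HG 174 to 4846 probe sets and 0 to 10 subunit genes. The median of the 58 genes then ran from -0.16 to 0.05 in DPF+ against DPF-, from -0.10 (without DPF- replicate 1) to 0.13 in the difference, and from -0.205 to -0.089 in DPF against HG. With the RNA amount as a covariate the median of the 58 genes was 0.025, -0.19 and 0.23 in the first 3 comparisons. COX5A in HG became -0.10 with that covariate, and TFB1M, a mitochondrial transcription factor, had 0.14 in HG, with a range of -0.17 to 0.44 when 1 array was left out (-0.17 without HG- replicate 2). Of 12 genes with several tested probe sets, 6 had another probe set of opposite sign in DPF+ against DPF-, 1 in HG+ against HG-, 1 in the difference and 6 in DPF against HG. Of 619 repeats for single named genes, leave-one-out fits included, 2 turned sign. In the 347 with no array left out, 344 kept direction and side of the threshold, 2 became calls and 1 turned sign. Many of the repeats could not turn sign. Other filters, variance models, replicate blocks and fits of 1 contrast alone leave a difference of group means unchanged. So does leaving out an array of the other source in DPF+ against DPF- or HG+ against HG-.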
